A study of Mus musculus with 4 samples.

Results

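Stem cell niche ligands are the signals that neighbouring cells give to the stem cells at the crypt base, and 9 genes for such ligands were followed here across the cells of mouse small intestinal crypts: the Wnt genes Wnt3 and Wnt11, the EGF-type genes Egf, Tgfa, Areg and Ereg, and the Notch ligand genes Dll1, Dll4 and Jag1. They were taken by symbol out of the 27998 genes counted, and all 9 were found in the files. The question was which class of crypt cell is the source of each ligand, and whether its level differed with the deletion of Slc7a5, which encodes a transporter of large neutral amino acids. EpCAM+ CD45- crypt cells of 8-week-old mice were profiled with the 10x Genomics 3' kit in 4 libraries, of which 2 carry the label slc7a5 fl/fl and 2 the label slc7a5 IEC-KO. In both groups exon 1 of Slc7a5 is flanked by loxP sites, and in the IEC-KO group a Cre recombinase under the villin promoter, which is active throughout the intestinal epithelium, removes it. The labels name 4 mice but not how they were divided among the libraries, so the p-values measure the spread between these libraries, which may be technical.

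Wnt ligands bind Frizzled receptors with the LRP co-receptors and stabilise beta-catenin, which keeps crypt base stem cells dividing. EGF-type ligands are made as membrane proteins, are shed by ADAM proteases and activate the EGF receptor family. Delta-like and Jagged ligands stay on the membrane and activate Notch on the touching cell, which holds it out of the secretory lineages, and cells that make Delta-like ligands enter those lineages themselves. Paneth cells, the granular cells between the stem cells, are known as an epithelial source of WNT3, EGF, TGF-alpha and DLL4, while the stroma around the crypt makes other Wnt ligands.

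Cells were called Paneth cells when genes whose symbols start with Defa, which are alpha-defensins, took 30% or more of their UMIs. UMIs are unique molecular identifiers, which tag single transcripts. Below, alpha-defensin means the Defa symbols alone. Genes with Gm symbols were not counted with them. Among these, Gm15299 led a Paneth-like cluster mostly from libraries labelled IEC-KO, and Gm15292 led one mostly from those labelled fl/fl. What such genes add to each class was not tested. By this rule there were 8325 Paneth cells among 26498, with 2020 and 1950 in the libraries labelled fl/fl and 2019 and 2336 in those labelled IEC-KO. A further 2732 cells lay between 20% and 30% and entered no comparison between classes. The 15441 cells under 20% were split by clusters named from markers, giving 7433 goblet-like cells, 3589 cells like transit amplifying (TA) cells, the dividing progenitors above the stem cells, 1451 enterocyte-like, 229 tuft-like and 176 enteroendocrine-like cells. Left over were 1533 cells of an unnamed cluster led by Plet1 and Tac1, which held 4 and 4 cells of the libraries labelled fl/fl against 727 and 798 of those labelled IEC-KO, and 1030 cells of Paneth-like clusters with little alpha-defensin, of which 8 came from the libraries labelled fl/fl. No cluster was led by stem cell markers, so stem cells were not set apart as a class.

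The class called Paneth bore its name by markers that the rule did not use. Levels are given as UPM, a gene's UMIs on a per-million scale of all UMIs of the class. Lyz1, encoding lysozyme, stood at 14213 to 36009 UPM in it against 5695 to 9387 in goblet-like cells, and Itln1 at 22619 to 37314 against 9326 to 12502. Mmp7, a matrix protease that activates alpha-defensins, did not separate the classes on this scale, with 1364 to 3073 in Paneth and 1664 to 1826 in goblet-like cells. Of the markers of other cells, the immune list summed to 62.8 and 51.6 UPM without alpha-defensin in Paneth cells of the libraries labelled fl/fl and 24.7 and 20.2 in those labelled IEC-KO, with 3 to 4 of 8 genes counted, against 4.36 to 9.33 in goblet-like cells. The stromal and endothelial list summed to 0.449 to 1.13 in Paneth cells with 3 of 9 genes counted. The defining markers Cd3e of T cells and Col1a1 of fibroblasts were at 0 in Paneth cells of all 4 libraries, and Ptprc, the CD45 gene, was at 0.0937 to 0.116 UPM. The rule caught nearly all cells of the Paneth-like clusters in the libraries labelled fl/fl, 97.4% and 98.3%, but 54.7% and 64.9% in those labelled IEC-KO, so the Paneth class there is the part richest in alpha-defensin.

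The libraries held 87922473 to 127094508 UMIs. Depth per cell went with the label: Paneth cells had a median of 46965 and 52851.5 UMIs in the libraries labelled fl/fl and 13782 and 20159 in those labelled IEC-KO. Slc7a5 itself, counted at its 3' end and so not informative on exon 1, had 140 and 128 UMIs in the libraries labelled fl/fl and 350 and 615 in those labelled IEC-KO. This count checks nothing about the deletion, so the genotypes are taken from the labels alone.

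Over all cells, Wnt3 was counted with 11053 UMIs, Dll1 with 3801, Dll4 with 2546, Tgfa with 1100, Egf with 581, Jag1 with 561, Areg with 378, Ereg with 44 and Wnt11 with 2. The 2 UMIs of Wnt11 lay in 2 cells of 1 library labelled IEC-KO, and neither was a Paneth cell. With 0 UMIs in Paneth cells of every library, a Wnt11 level of up to 0.029 to 0.0974 UPM remained possible there (3 counts of the class total). Wnt11 and Ereg were too low for any test between classes or genotypes, which left 7 members.

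All positions are those of the GENCODE M21 annotation on GRCm38, the assembly also called mm10, and all 9 genes are protein coding. Wnt3 lies on chromosome 11 from 103774150 to 103817957 on the plus strand and Wnt11 on chromosome 7 from 98835112 to 98855195 on the plus strand. Egf spans 129677565 to 129755316 on the minus strand of chromosome 3 and Tgfa 86195223 to 86275719 on the plus strand of chromosome 6. Areg and Ereg lie near each other on the plus strand of chromosome 5, Ereg from 91074622 to 91093646 and Areg from 91139599 to 91148432. Dll1 lies on the minus strand of chromosome 17 from 15367354 to 15376872, Dll4 on the plus strand of chromosome 2 from 119325784 to 119335962, and Jag1 on the minus strand of the same chromosome from 137081456 to 137116644.

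The promoters of Wnt3, Areg and Dll1 are printed because these members differed between the genotypes in more than 1 class. Each is a window around a RefSeq gene start (GRCm38.p6) and is written 5' to 3' on the gene's strand. Capitals mark every E-box, CANNTG, which is the same on both strands and is the type of site that the secretory lineage factor ATOH1 recognises. They cover chr11:103773925-103774224 on the plus strand for Wnt3, chr5:91139349-91139648 on the plus strand for Areg, and chr17:15376883-15377182 on the minus strand for Dll1, the upstream one of its 2 RefSeq starts.
Wnt3: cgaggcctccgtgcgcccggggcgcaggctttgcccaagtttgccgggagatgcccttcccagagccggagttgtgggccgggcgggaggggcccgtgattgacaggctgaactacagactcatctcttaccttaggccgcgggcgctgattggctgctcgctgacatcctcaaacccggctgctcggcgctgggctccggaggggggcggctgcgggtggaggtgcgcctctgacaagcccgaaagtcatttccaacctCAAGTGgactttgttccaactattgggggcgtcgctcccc
Areg: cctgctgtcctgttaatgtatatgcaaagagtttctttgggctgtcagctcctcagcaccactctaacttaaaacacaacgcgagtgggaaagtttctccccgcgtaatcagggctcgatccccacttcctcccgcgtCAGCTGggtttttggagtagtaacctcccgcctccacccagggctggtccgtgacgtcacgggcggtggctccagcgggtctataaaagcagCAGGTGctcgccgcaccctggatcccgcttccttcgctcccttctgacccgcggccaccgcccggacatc
Dll1: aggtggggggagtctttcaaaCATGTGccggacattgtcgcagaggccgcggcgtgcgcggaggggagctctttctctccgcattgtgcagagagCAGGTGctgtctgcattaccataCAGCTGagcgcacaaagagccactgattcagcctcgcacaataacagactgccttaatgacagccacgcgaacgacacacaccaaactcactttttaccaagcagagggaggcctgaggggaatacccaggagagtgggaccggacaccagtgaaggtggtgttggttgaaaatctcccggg
The window of Wnt3 held 1 E-box, that of Areg 2 and that of Dll1 3. An E-box stood in 72.3% of the 32851 mouse promoters of this length, so its presence does not set these genes apart. TGGGAA, the core letters of the Notch effector site RBPJ, was found on either strand once in the windows of Wnt3 and Areg and not in that of Dll1, and in 25.6% of all promoters. These matches are letters in a window and no evidence of binding.

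Which class gave the highest level of Egf, Tgfa and Dll4 depended on how the RNA was counted. Among the classes compared, the Wnt3 mean was highest in Paneth cells either way. In UPM, 1 of the 9 members, Wnt3, was highest in Paneth cells among the 4 classes with at least 30 cells in every library. The libraries labelled IEC-KO carried this, with Wnt3 means of 37.3 in Paneth and 24.4 in goblet-like cells. In those labelled fl/fl the means were 18.3 and 19.3. Cells between the alpha-defensin limits, which were not compared, had a Wnt3 mean of 43.5 UPM against 27.8 in Paneth cells. They held 23.4% and 19.7% of the Wnt3 UMIs of the libraries labelled IEC-KO. The mean of enteroendocrine-like cells was 38.7, from 62 UMIs. Per cell, the mean of 4 members was highest in Paneth cells: Wnt3, Egf, Tgfa and Dll4. For Tgfa the ranges overlapped those of all 3 other classes, and Paneth cells were above TA-like cells in 1 of 4 libraries (ratio of the means 1.07). Paneth cells gave more UMIs per cell on average than the other 3 classes in every library, and 36.8% to 44.0% of their UMIs were alpha-defensins.

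**Figure D1:**
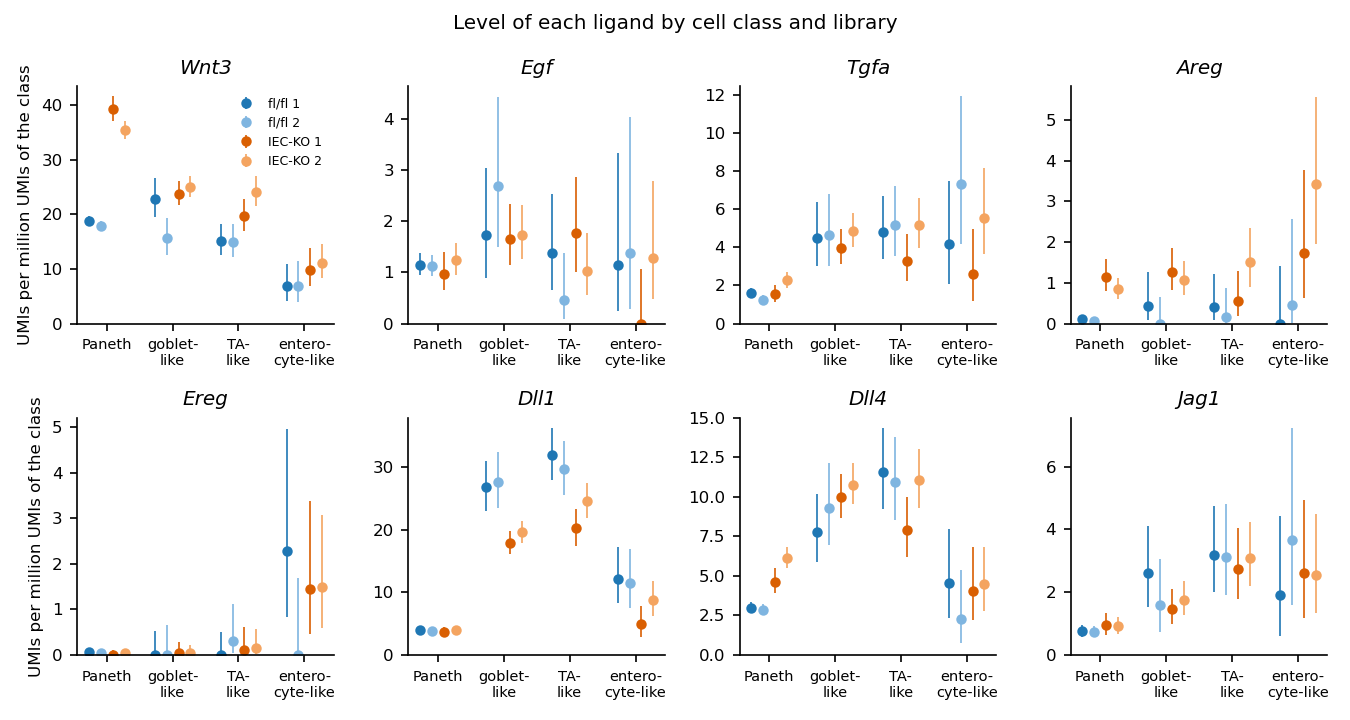
Level of 8 ligands (Wnt11, with 2 UMIs, is left out) in UPM, UMIs on a per-million scale of the class (vertical axis, linear from 0) in Paneth, goblet-like, TA-like and enterocyte-like cells; each point is 1 library and each bar its exact 95% Poisson interval, which covers counting error only. Wnt3 is highest in the Paneth cells of the libraries labelled IEC-KO, at 35.3 and 39.3, whereas Dll1 is lowest in Paneth cells, between 3.67 and 4.00.

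Wnt3, the Wnt ligand that Paneth cells are known for, was counted 1765 and 1851 times in Paneth cells of the libraries labelled fl/fl and 1210 and 1889 times in those labelled IEC-KO. The Paneth class held 82.8% and 87.1% of all Wnt3 UMIs in the former and 42.7% and 47.7% in the latter. Its shares of all UMIs were similar, at 83.2%, 86.6%, 35.0% and 42.1%, from 55.6%, 60.6%, 20.2% and 24.2% of the cells. The level in Paneth cells was 18.7 and 17.9 UPM in the libraries labelled fl/fl and 39.3 and 35.3 in those labelled IEC-KO. In goblet-like cells it was 22.8, 15.7, 23.8 and 24.98, in TA-like cells 15.2, 14.98, 19.7 and 24.1, and in enterocyte-like cells 6.85, 6.88, 9.84 and 11.1 in the same order of libraries. Paneth cells thus lay above goblet-like cells in 3 of 4 libraries and above TA-like and enterocyte-like cells in 4 of 4, but their range overlapped those of goblet-like and TA-like cells. Enterocyte-like cells were lowest, and their range overlapped with no other of these classes.

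Between goblet-like and TA-like cells, the next 2 in the order of Wnt3 levels, the ranges overlapped. With alpha-defensin UMIs taken out of the total (UPM without alpha-defensin), Wnt3 in Paneth cells stood at 31.8, 32.0, 62.2 and 56.2 UPM, above the 17.0 to 26.7 of goblet-like cells in every library. RNA set free from broken Paneth cells can enter other droplets, and alpha-defensins mark it. At the ratio of Wnt3 to alpha-defensin seen in Paneth cells of the same library, the alpha-defensin UMIs in other classes would bring along 14.0% to 25.5% of the Wnt3 UMIs of goblet-like cells, 14.4% to 23.8% of those of TA-like cells and 29.5% to 43.3% of those of enterocyte-like cells.

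Within the goblet-like class, in cells under 20% alpha-defensin, Wnt3 was uneven. In the cluster led by Ccl9 and Mt3 with Cd74 and H2-Aa, which serve antigen presentation, these cells gave 83.8 and 62.0 UPM without alpha-defensin in the libraries labelled fl/fl, from 86 and 62 cells, and 54.2 and 57.4 in those labelled IEC-KO. In the other goblet-like clusters, led by Zg16 and by Serpina1b, it lay between 9.70 and 22.1. The Ccl9 cluster was thus above the Paneth class of the same library in both libraries labelled fl/fl, below it in the first labelled IEC-KO and close to it in the second. Per cell it gave 0.849, 0.629, 0.321 and 0.473 Wnt3 UMIs, below the 0.874, 0.949, 0.599 and 0.809 of Paneth cells in 4 of 4 libraries. The alpha-defensin share of these cells' UMIs was 12.2%, 13.5%, 8.68% and 9.65%, against 3.00% to 8.96% in the other goblet-like clusters, and the part of that in the Wnt3 level was not tested. Enteroendocrine-like cells, which make gut hormones, were at 41.3 and 34.8 UPM without alpha-defensin in the libraries labelled IEC-KO, from 27 and 25 UMIs in 91 and 67 cells.

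**Figure D2:**
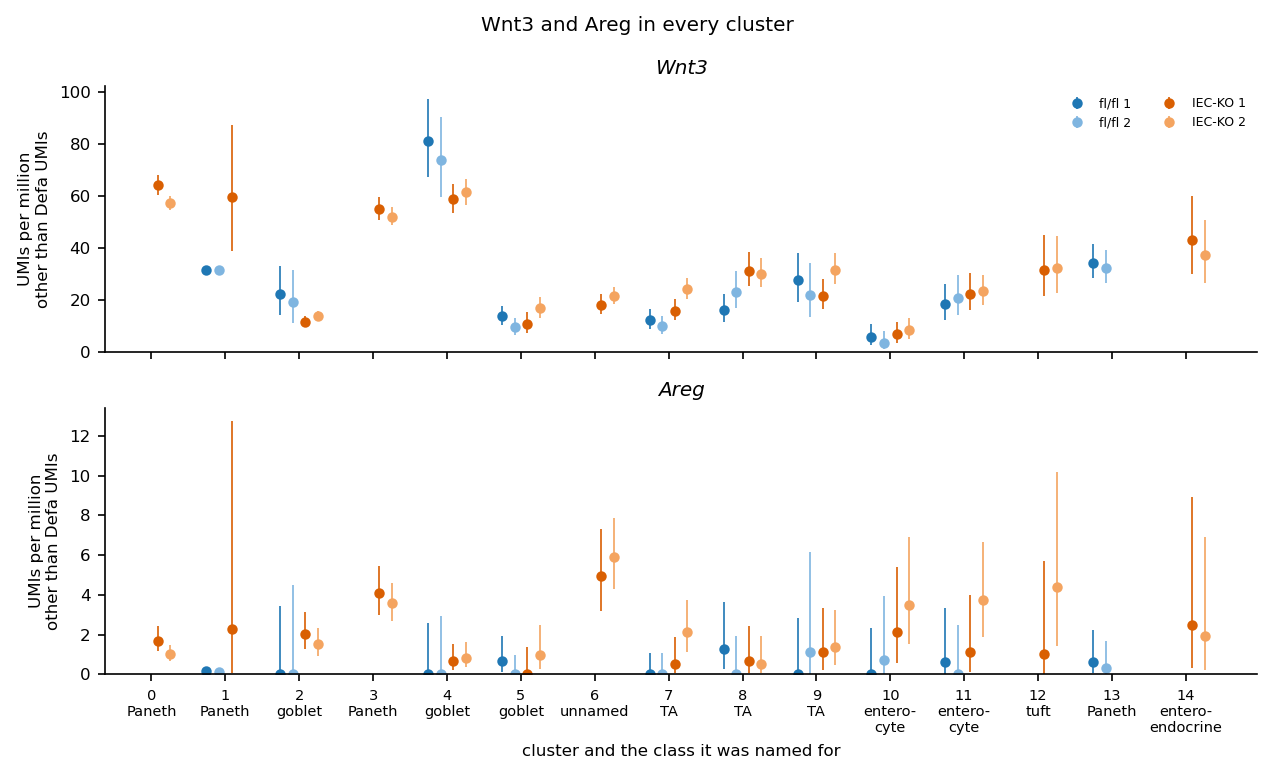
Wnt3 (upper panel) and Areg (lower panel) in UPM without alpha-defensin UMIs (vertical axes, linear from 0) in each of the 15 clusters, numbered with the class each was named for; points are libraries with at least 30 cells in the cluster and bars are exact 95% Poisson intervals of the counts. All cells of a cluster are counted, whatever their alpha-defensin share, and goblet-like cluster 4 then has 59.0 to 81.4 for Wnt3, while Areg is highest in the unnamed cluster 6 (4.96 and 5.90), with Paneth-like cluster 3 at 4.08 and 3.57 and, in the second library labelled IEC-KO, tuft-like cluster 12 at 4.38 from 5 UMIs.

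To test the members against all genes, UMIs were summed over the Paneth cells and over the cells under 20% alpha-defensin of each library and compared in edgeR with the library as a block. TMM scaling, which sets the bulk of genes to no change, was used, so a fold change says how a gene stood relative to the other genes of the cell. On this scale 4 of the 7 members tested passed an adjusted p of 0.05, against 52.5% of the 12433 genes tested. Higher in Paneth cells were 3 (25.4% of all genes), and lower was 1 (27.1%), so the count of members called was close to that of genes at large.

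The level of Wnt3, scaled by TMM, was 38.4 and 39.3 counts on a per-million scale (CPM) in Paneth cells of the libraries labelled fl/fl and 55.3 and 47.9 in those labelled IEC-KO. In the other cells it was 9.53, 8.07, 13.7 and 14.2. The groups did not overlap, and the log2 fold change was 2.00 (standard error, SE, 0.083, adjusted p = 1.39e-06 in edgeR). Egf, the ligand used to sustain crypt cultures, followed with 2.35, 2.44, 1.37 and 1.67 CPM in Paneth cells and 0.81, 0.80, 0.96 and 0.99 in the others. Its log2 fold change was 1.06 (SE 0.197, adjusted p = 0.00228 in edgeR), and again no value of one class reached the other. Dll4, the Notch ligand linked to Paneth cells, was higher by a smaller step, at 6.11, 6.26, 6.54 and 8.31 CPM against 4.99, 5.27, 5.44 and 6.21. The ranges of Dll4 overlapped, although Paneth cells were above the other cells in each of the 4 libraries, with log2 fold change 0.31 (SE 0.073, adjusted p = 0.00658 in edgeR).

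Dll1, which marks cells that have just entered the secretory lineages, went the other way. It stood at 8.20, 8.48, 5.17 and 5.42 CPM in Paneth cells and at 14.8, 14.4, 9.36 and 10.4 in the others, log2 fold change −0.85 (SE 0.063, adjusted p = 2.14e-05 in edgeR). Paneth cells were lower in 4 of 4 libraries. Tgfa, Areg and Jag1 gave log2 fold changes of 0.10, 0.16 and 0.08 with adjusted p values of 0.491, 0.588 and 0.676 in edgeR. These values do not show that the classes are alike, with standard errors of 0.111, 0.224 and 0.134.

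Without TMM, scaled by library size only, the median of all genes moved to −1.56 and the members moved with it. Wnt3 then gave 0.47 (adjusted p = 0.0845 in edgeR), Egf −0.44, Dll4 −1.24 and Dll1 −2.41, so only Wnt3 kept a positive sign on that scale, and 5 members were called, all lower in Paneth cells. On both scales Wnt3 was first, Egf next and Dll1 last. The call for Dll4 also ended when every cell was thinned to 2000 UMIs (log2 fold change 0.12, adjusted p = 0.730 in edgeR).

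**Figure D3:**
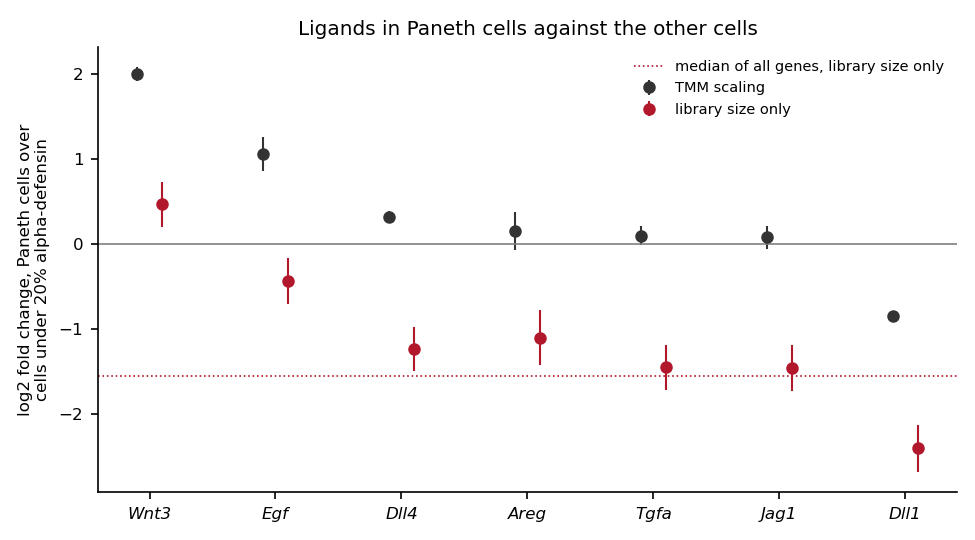
Log2 fold change (vertical axis) of 7 ligands (horizontal axis) in Paneth cells over the cells under 20% alpha-defensin, in edgeR with TMM scaling (black) and with library size only (red); bars are standard errors and the dotted line is the median of all genes under library size only. Wnt3 is highest and Dll1 lowest on both scales, at 2.00 and −0.85 with TMM and 0.47 and −2.41 without, while Egf, Dll4, Areg, Tgfa and Jag1 change sign with the scale.

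Among these 4 classes the 3 Notch ligands had their highest mean level, in UPM, in TA-like cells, though for Dll4 it was in goblet-like cells without the first library labelled fl/fl. Dll1 was at 31.8, 29.7, 20.2 and 24.5 UPM there, at 26.7, 27.7, 17.9 and 19.6 in goblet-like cells, at 12.2, 11.5, 4.92 and 8.76 in enterocyte-like cells, and at 3.99, 3.87, 3.67 and 4.00 in Paneth cells. TA-like cells were above goblet-like cells in 4 of 4 libraries, with overlapping ranges, and both were above enterocyte-like and Paneth cells with no overlap. Among the TA-like clusters, the one of dividing cells led by Ube2c and Cenpa carried the most Dll1, 52.9, 55.6, 35.4 and 42.2 UPM without alpha-defensin, whereas the one with Cps1 and Clca3b had 17.7, 15.9, 6.95 and 12.6. The stem cell marker list was also highest in TA-like cells among these classes, summing to 477 to 546 UPM without alpha-defensin against 150 to 319. Stem cells and TA cells were therefore not told apart within this class. Paneth RNA at the alpha-defensin level of goblet-like cells would account for 2.47% to 3.56% of their Dll1 UMIs.

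Dll4, in UPM, was lowest in enterocyte-like and Paneth cells, whose ranges overlapped, with 4.57, 2.29, 4.05 and 4.49 in the former and 2.98, 2.86, 4.64 and 6.14 in the latter. In goblet-like cells it was 7.81, 9.28, 9.98 and 10.8, and in TA-like cells 11.6, 10.9, 7.91 and 11.03, and these 2 classes overlapped. In the libraries labelled IEC-KO, tuft-like cells were at 11.4 and 5.07 from 9 and 4 UMIs, and the unnamed cluster at 8.23 and 11.1. Per cell, Paneth cells gave 0.139, 0.151, 0.071 and 0.140 Dll4 UMIs, next to 0.142, 0.145, 0.057 and 0.112 in TA-like cells, so these classes could not be ordered on that scale either. With alpha-defensin UMIs taken out of the total, Dll4 in Paneth cells was above enterocyte-like cells in 4 of 4 libraries without overlap. It stayed below goblet-like and TA-like cells in every library, with overlap. Jag1, which signals through Notch to neighbouring cells as well, was lowest in Paneth cells at 0.752, 0.736, 0.942 and 0.917 UPM and reached 3.17, 3.12, 2.75 and 3.096 in TA-like cells, without overlap. In goblet-like cells Jag1 was at 2.60, 1.61, 1.45 and 1.76, below TA-like cells in 4 of 4 libraries without overlap, and in enterocyte-like cells at 1.90, 3.67, 2.61 and 2.56, which overlapped both.

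Of the EGF-type members, none was highest in Paneth cells when counted in UPM. Egf stood at 1.14, 1.11, 0.974 and 1.24 there and at 1.74, 2.68, 1.66 and 1.72 in goblet-like cells, which were higher in 4 of 4 libraries without overlap. In TA-like cells Egf was at 1.38, 0.468, 1.76 and 1.03 and in enterocyte-like cells at 1.14, 1.38, 0 and 1.28, and both overlapped Paneth cells. The Paneth and goblet-like values rest on 30 to 115 UMIs per library in Paneth cells and 12 to 44 in goblet-like cells. Tgfa, which binds the same receptor as Egf, stood at 1.61, 1.26, 1.53 and 2.26 in Paneth cells. It lay between 2.61 and 7.34 in goblet-like, TA-like and enterocyte-like cells, whose ranges overlapped one another. With alpha-defensin UMIs taken out of the total, the order for Egf was lost. Paneth cells were then above goblet-like cells in 2 of 4 libraries, with overlap. Tgfa in Paneth cells stayed below these classes in every library, but its range overlapped those of TA-like and enterocyte-like cells.

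Ereg, encoding epiregulin, had its highest mean level in enterocyte-like cells, on very few counts. Enterocyte-like cells held 6, 0, 5 and 7 of the 13, 7, 9 and 15 Ereg UMIs of the libraries, at 2.28, 0, 1.45 and 1.496 UPM. Areg was also highest on average in enterocyte-like cells, at 0, 0.459, 1.74 and 3.42, with overlap between all 4 classes. Paneth cells held 7, 4, 0 and 2 Ereg UMIs at no more than 0.074 UPM. As 1 library labelled fl/fl had no Ereg UMI in enterocyte-like cells, the ranges of the classes overlapped.

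Between the genotypes, UMIs summed over the Paneth cells of each library were compared, and 5 of 7 members passed an adjusted p of 0.05, against 39.9% of the 12492 genes tested. Higher in the libraries labelled IEC-KO were 3 members, Areg, Wnt3 and Dll4 (20.1% of all genes), and lower were 2, Dll1 and Egf (19.8%). Depth per Paneth cell differed with the label, as given above, and so did the part of the Paneth-like clusters that the rule caught. Goblet marker genes also differed in sum, at 71609 to 75737 UPM without alpha-defensin in Paneth cells of the libraries labelled fl/fl and 82094 to 90735 in those labelled IEC-KO, with 18 of 18 markers counted in each. The median gene of the goblet list hardly moved, at 300 and 302 against 309 and 314, so few genes carried the difference in the sum. Stem cell markers went from 173 to 175 up to 252 to 274, and enterocyte markers from 2594 to 2595 down to 1319 to 1518. Not all stem markers rose. Lgr5 went from 2.94 and 2.93 to 5.91 and 5.95 UPM, but Olfm4 from 2.77 and 4.35 to 1.56 and 1.59. The marker sums are not TMM-scaled, and under library size only the median of all genes in Paneth cells moved to 0.62 on the log2 scale. The Paneth markers other than Defa genes went from 224266 to 227937 down to 117010 to 141551. The sum of the immune list was lower as given above. Few of its genes carried that sum, as the median gene of the list was at 0 to 0.0298 in Paneth cells. The part of these in the results was not tested. The goblet-like class differed in its mix of clusters. The Ccl9 cluster gave 86 of 650 and 62 of 483 cells in the libraries labelled fl/fl. In those labelled IEC-KO it gave 1037 of 3303 and 849 of 2997. The Serpina1b cluster gave 458 and 352 against 461 and 516. The part of this mix in the goblet-like and interaction results below was not tested. The TA-like clusters also differed in mix, counted over all their cells. The one with Hells and Lig1 had 115 and 81 cells with the fl/fl label against 392 and 386 with IEC-KO. The one with Cps1 and Clca3b had 289 and 255 against 532 and 543. The part of the TA-like mix in the TA-like results was not tested.

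Areg, encoding amphiregulin, a ligand associated with epithelial repair, showed the largest step. It had 11 and 7 UMIs in Paneth cells of the libraries labelled fl/fl and 35 and 45 in those labelled IEC-KO, although the latter had fewer UMIs in their Paneth class. The TMM-scaled level rose from 0.14 and 0.09 to 0.94 and 0.67 CPM, log2 fold change 2.75 (SE 0.359, adjusted p = 2.24e-06 in edgeR). In goblet-like cells it had 3 and 0 UMIs against 25 and 27, with log2 fold change 2.18 (SE 0.708, adjusted p = 0.0406 in edgeR). In both classes Areg passed the count filter only through the libraries labelled IEC-KO, where it is high. The adjusted p values are therefore no independent support for the difference. Among goblet-like cells 2 of 7 members were called, against 17.3% of the 10879 genes tested, with Areg among the higher (8.88% of all genes) and Dll1 among the lower (8.41%). DESeq2 gave Areg no adjusted p there. Without the library labelled fl/fl that has no Areg UMI, the log2 fold change was 1.35 (adjusted p = 0.320 in edgeR). Without either library labelled IEC-KO, Areg was under the count filter in goblet-like cells.

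The highest Areg levels were in cells that the libraries labelled fl/fl hardly held. In the unnamed cluster led by Plet1 and Tac1, 21 and 41 UMIs gave 4.22 and 5.35 UPM in the libraries labelled IEC-KO, and in Paneth-like clusters with under 20% alpha-defensin 17 and 17 UMIs gave 3.98 and 4.77. Paneth cells of the same libraries were at 1.14 and 0.842. Within the Paneth-like clusters Areg was lower where the alpha-defensin share was higher. At 20% to 30% it was 3.90 and 3.20 UPM without alpha-defensin, at 30% to 40% 1.78 and 1.42, and at 40% to 50% 1.20 and 0.808, the last from 5 and 6 UMIs. The libraries labelled fl/fl were at 0 to 0.217 in these same ranges. At 20% to 30% their 0 UMIs came from 51 and 26 cells, with upper Poisson limits of 5.85 and 14.1. Those limits lie above the levels of the libraries labelled IEC-KO, so this range cannot show a difference. At 30% to 40% the upper limits of the libraries labelled fl/fl were 0.420 and 0.583. The lower limits of those labelled IEC-KO were above them, at 1.17 and 0.991. At 40% to 50% the upper limits with the fl/fl label were 0.427 and 0.290. The lower limits with the IEC-KO label were 0.390 and 0.296, so the intervals overlapped in part. Cells rich in alpha-defensin were also deeper, so share and depth cannot be told apart here. With Paneth cells taken at 40% or more, the Areg difference was 1.92 on the log2 scale (adjusted p = 0.0175 in edgeR). That fit rests on few UMIs, with 8 and 7 against 5 and 6 in the range of 40% to 50%. Its p-value is no independent support either.

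**Figure D4:**
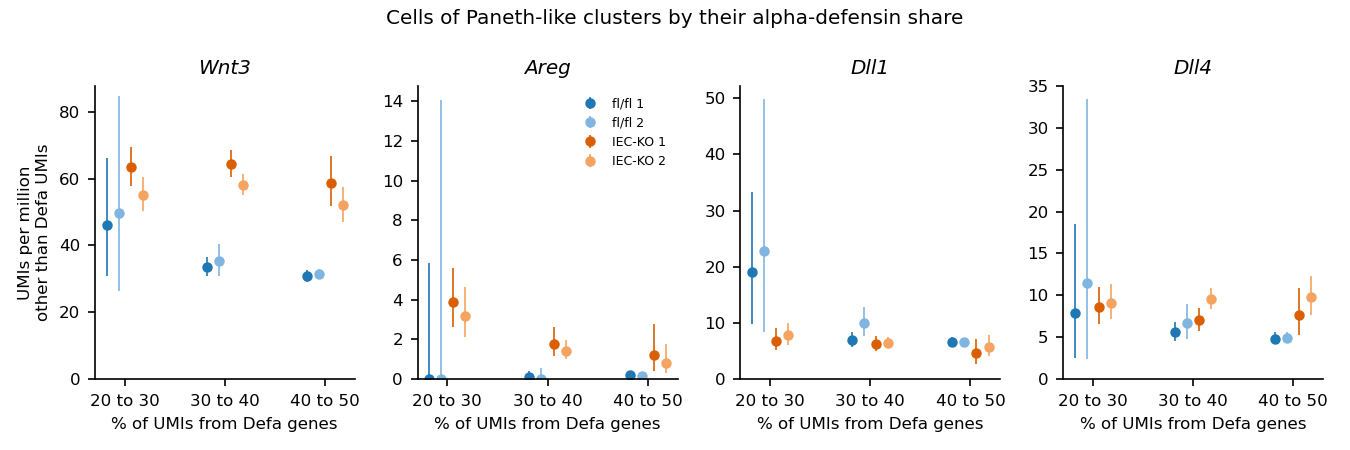
Wnt3, Areg, Dll1 and Dll4 in UPM without alpha-defensin UMIs (vertical axes, linear from 0) in cells of the Paneth-like clusters, grouped by the percent of their UMIs from alpha-defensin genes (horizontal axis); points are libraries and bars exact 95% Poisson intervals of the counts. In the libraries labelled IEC-KO, Areg drops from 3.90 and 3.20 in the lowest range to 1.20 and 0.808 in the highest, while Wnt3 stays between 52.1 and 64.4.

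Wnt3 in Paneth cells was 22.4 and 22.9 TMM-scaled CPM in the libraries labelled fl/fl and 32.4 and 28.0 in those labelled IEC-KO. The groups did not overlap, with log2 fold change 0.41 (SE 0.074, adjusted p = 0.000146 in edgeR). The same direction was seen in the higher ranges of alpha-defensin share plotted. At shares of 40% to 50%, Wnt3 in UPM without alpha-defensin was 30.8 and 31.4 with the fl/fl label against 58.8 and 52.1 with IEC-KO. At 30% to 40% it was 33.6 and 35.4 against 64.4 and 58.2. At 20% to 30% it was 46.0 and 49.6, from 29 and 13 UMIs in 51 and 26 cells, against 63.5 and 55.2. The Poisson intervals of the libraries labelled fl/fl there were 30.8 to 66.0 and 26.4 to 84.8. They cover both values of the libraries labelled IEC-KO, so this lowest range cannot decide the direction. UPM without alpha-defensin is not TMM-scaled, and under library size only the median of all genes in Paneth cells moved to 0.62 on the log2 scale. The part of such a shift in these Wnt3 values was not tested. Per cell the direction turned, with Wnt3 means in Paneth cells of 0.911 UMIs with the fl/fl label and 0.704 with IEC-KO. Depth per cell differed with the label as well.

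In TA-like cells Wnt3 was 14.7 and 14.7 against 20.0 and 24.9 CPM, log2 fold change 0.62 (SE 0.134, adjusted p = 0.00729 in edgeR), and it was the 1 member of 6 called there, against 7.46% of the 10852 genes tested, 4.58% being higher and 2.88% lower. Without the second library labelled IEC-KO this call was lost, at 0.44 (adjusted p = 0.0677 in edgeR). Paneth RNA at the alpha-defensin level of TA-like cells would bring 14.4% and 15.1% of their Wnt3 UMIs with the fl/fl label. With IEC-KO it would bring 23.8% and 20.8%, and its part in the TA-like difference was not tested. In goblet-like cells the Wnt3 level was 23.0 and 16.1 against 23.4 and 24.6 CPM, where the spread within the libraries labelled fl/fl exceeded the difference (log2 fold change 0.28, adjusted p = 0.143 in edgeR). Without the first library labelled fl/fl it was 0.58. By cluster, in UPM without alpha-defensin, Wnt3 was 83.8 and 62.0 against 54.2 and 57.4 in the Ccl9 cluster. It was 22.1 and 16.5 against 11.2 and 13.1 in the Zg16 cluster, and 13.8 and 9.70 against 10.9 and 16.9 in the Serpina1b cluster. The mix of these clusters differed with the label, as given above. In enterocyte-like cells the log2 fold change was 0.65 (adjusted p = 0.263 in edgeR), from 15 to 52 UMIs per library.

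Dll1 was lower with the IEC-KO label in Paneth cells and goblet-like cells, in the former under TMM scaling but not under library size only. In Paneth cells it was 4.79 and 4.95 against 3.02 and 3.17 CPM, without overlap (log2 fold change −0.65, SE 0.108, adjusted p = 5.26e-05 in edgeR). In goblet-like cells it was 27.0 and 28.4 against 17.6 and 19.3 CPM (log2 fold change −0.57, SE 0.101, adjusted p = 0.00048 in edgeR). In TA-like cells 30.97 and 29.2 stood against 20.6 and 25.3 CPM, and in enterocyte-like cells 12.1 and 11.5 against 4.94 and 8.97, and neither passed the test (log2 fold changes −0.38 and −0.71, adjusted p = 0.0533 and 0.218 in edgeR). With TMM scaling both libraries labelled IEC-KO were below both labelled fl/fl in each of the 4 classes, but in Paneth cells this was lost under other scalings. In UPM the Paneth level did not separate the genotypes, at 3.99 and 3.87 against 3.67 and 4.00, and with library size only the log2 fold change was −0.03 (adjusted p = 0.871 in edgeR), where the median of all genes moved to 0.62. With every cell thinned to 2000 UMIs it was 0.01 (adjusted p = 0.994 in edgeR). In goblet-like cells Dll1 was at −0.53 under library size only (adjusted p = 0.00127 in edgeR) and a median of all genes of 0.05.

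With TMM scaling Egf was lower in Paneth cells of the libraries labelled IEC-KO, at 1.37 and 1.42 against 0.80 and 0.98 CPM, with log2 fold change −0.62 (SE 0.194, adjusted p = 0.0144 in edgeR) that became 0.0040 under library size only (adjusted p = 0.987). DESeq2 did not call it (adjusted p = 0.12), and without the first library labelled IEC-KO it was −0.51 (adjusted p = 0.0719 in edgeR). Dll4 was close to the threshold, with 3.57 and 3.65 against 3.83 and 4.86 CPM and log2 fold change 0.30 (SE 0.116, adjusted p = 0.0477 in edgeR). That value was carried by the second library labelled IEC-KO, without which it was 0.09 (adjusted p = 0.711 in edgeR). Leaving out the first or the second library labelled fl/fl also ended the call, with adjusted p values of 0.128 and 0.0755 in edgeR, and DESeq2 did not call it (adjusted p = 0.275). Tgfa and Jag1 gave log2 fold changes of −0.16 and −0.31 with adjusted p values of 0.510 and 0.290 in edgeR. Tgfa was at 1.93 and 1.61 against 1.26 and 1.79 CPM and Jag1 at 0.90 and 0.94 against 0.78 and 0.73, with overlap of the groups for Tgfa.

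**Figure D5:**
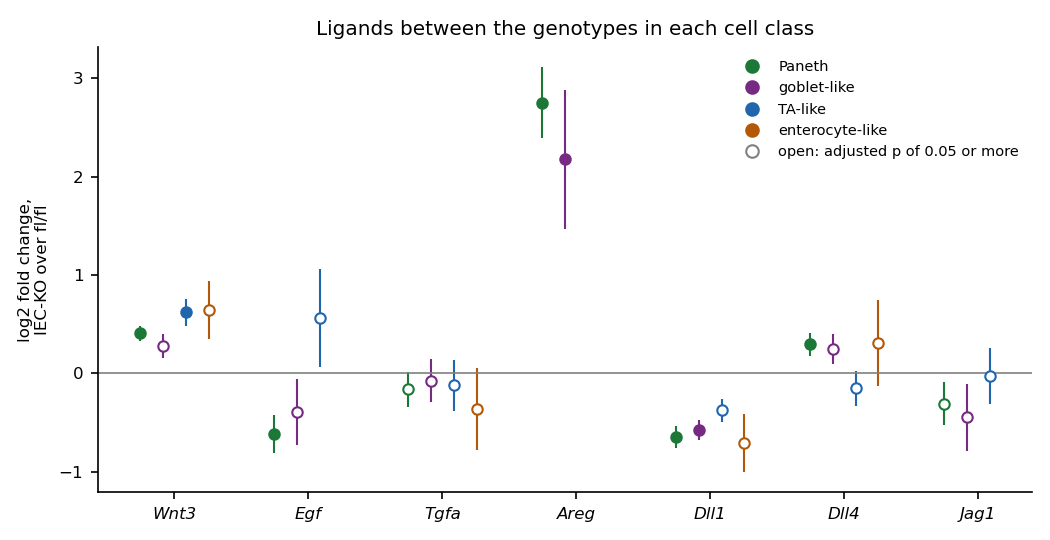
Log2 fold change between the libraries labelled IEC-KO and fl/fl (vertical axis) for 7 ligands (horizontal axis) in Paneth, goblet-like, TA-like and enterocyte-like cells (colours), in edgeR with TMM scaling; bars are standard errors, filled points passed an adjusted p of 0.05 and members with too few counts in a class have no point. Areg is at 2.75 in Paneth and 2.18 in goblet-like cells, and Dll1 lies below 0 in all 4 classes under TMM, though its value in Paneth cells is −0.03 under library size only.

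Whether the genotype difference itself differed between Paneth and goblet-like cells was tested as an interaction, and 0 of 7 members passed in edgeR, against 15.9% of the 12094 genes tested, 9.34% being more positive in Paneth cells and 6.56% more negative. At an unadjusted p under 0.05 the count was also 0. DESeq2 called 0 as well, and left 4 members without an adjusted p. The interaction, on the log2 scale, was 0.13 for Wnt3, 0.53 for Areg, −0.07 for Dll1 and 0.05 for Dll4. With library size only, where the median of all genes moved to 0.57, 3 members were called, at 0.69 for Wnt3, 0.50 for Dll1 and 0.62 for Dll4. Among enterocyte-like cells 0 of 4 members tested were called in edgeR, against 3.91% of 8847 genes (2.64% higher and 1.27% lower), with 2 members, Wnt3 and Dll1, at an unadjusted p under 0.05. DESeq2 called 0 there at either level.

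The members were set beside the other genes of their pathways in Paneth cells, again with TMM scaling, so each direction is relative to the bulk of genes. The shift of 0.62 under library size only turns the sign of a smaller fall. The counts for each list stand against 20.1% of all genes higher and 19.8% lower. Of the 3 Wnt ligands tested out of 19, Wnt3 rose and Wnt5a, a ligand of the branch independent of beta-catenin, fell (log2 fold change −2.73, adjusted p = 0.00235 in edgeR) from a level of 0.17 and 0.24 to 0.05 and 0.01 CPM. Wnt5a was near the floor and passed the count filter only through the libraries labelled fl/fl, where it is higher. Its p-value is therefore no independent support. Of 16 Wnt receptor and receptor-turnover genes tested, 3 rose and 4 fell, with a median log2 fold change of 0.16. Znrf3, a ligase that removes Frizzled receptors, rose by 0.81 on the log2 scale, whereas the receptors Fzd2 and Fzd5 and the R-spondin receptor Lgr4 fell by 1.65, 0.62 and 0.51. The Wnt inhibitors Dkk3 and Sfrp5 fell by 3.92 and 0.68, and those were 2 of 3 tested. Few of the 11 listed inhibitors had counts enough for a test, with 1 in goblet-like and in TA-like cells and 0 in enterocyte-like cells. The fit of Paneth against the other cells tested 1 of them. A fall of 3.92 may thus rest on few UMIs. The limit of the count filter given for Wnt5a may hold for Dkk3 and Sfrp5 as well. Of 10 Wnt target genes, Ephb3 and Sox9 rose by 0.66 and 0.54, and Ascl2 and Cd44 fell by 1.28 and 0.79.

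Among the 6 EGF-type ligands tested, Areg rose while Egf, Nrg4 and Hbegf fell, the last 2 by 1.33 and 1.03 on the log2 scale, and the list's median was −0.48. The EGF receptor gene Egfr rose by 1.33, from 1.55 and 2.01 to 4.47 and 4.50 CPM, with the feedback inhibitor Errfi1 at 0.59. The partner receptors Erbb2 and Erbb3 fell by 0.58 and 0.33. Of the 4 shedding genes, Rhbdf1, a regulator of ADAM17, rose by 0.45.

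Of the 4 Notch ligands tested, Dll4 rose and Dll1 fell, with a median of −0.0052. Of 14 genes of Notch receptors and processing, Psen2, a catalytic subunit of gamma-secretase, rose by 0.43, and Notch2 and Rfng, a glycosyltransferase that modifies Notch, fell by 1.14 and 0.41. Of 2 Notch targets tested, Nrarp, a feedback inhibitor of Notch, fell by 0.83. In all, 30 of the 69 list genes tested passed, members included, which is 43.5% against 39.9% of all genes, 12 of them higher and 18 lower, where the median over all genes was −0.00036. With library size only there were 48, of which 45 were higher and 3 lower, so the balance of directions in these lists is set by the scaling.

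As a description, the genes whose pattern over 16 sums (4 classes in 4 libraries) was most like each member were sought among 7563 genes, by Pearson's correlation of log2(CPM + 1). The sums share libraries and classes, so the values carry no test. Wnt3 was most like Cd24a (0.96), Mmp7 (0.95) and Cib2 (0.93). Mmp7 is a Paneth granule gene, but it did not separate Paneth from goblet-like cells on the per-million scale, as given above. Areg was most like Atf5 (0.81), Mt1 (0.81) and Adig (0.81), Dll1 like Sdf2l1, Acss1 and Akr1b3 (0.98, 0.97 and 0.97), and Dll4 like Ptp4a3, Phlda1 and Foxa2 (0.96, 0.96 and 0.95). Egf reached 0.74, 0.73 and 0.67 with Slc18a1, Orai3 and Cldn4. Tgfa came closest to BC017158, Mast4 and Terf2ip (0.97, 0.96 and 0.95), and Jag1 to Tbc1d10b, Pcf11 and Pigq (0.97, 0.96 and 0.96).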

How the data were processed

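The authors deposited, for each of the 4 libraries, raw counts of UMIs for 27998 genes in every barcode kept by their cell calling, without normalization or cell type labels. Per the labels the counts come from Cell Ranger 2.1.1 and mm10, and the methods of the study name a later version. Cells with 200 or more genes were used. No pair of libraries had more than 132 cell barcodes in common. The members and the gene lists were chosen with earlier results of these data known.

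Cells were clustered together (2000 variable genes, 30 principal components, 20 neighbours, Leiden resolution 1, 15 clusters) without the 841 genes of the study's Paneth cell comparison, the members and the pathway lists. A marker counted at 25% of cells and 1.5 times the level elsewhere, and the Plet1 and Tac1 cluster stayed unnamed. Doublets were kept, and 1734 likely ones were left out as an alternative. UMIs were summed per library and class and tested with edgeR 4.0.16 (quasi-likelihood, TMM, filterByExpr, Benjamini-Hochberg at 0.05, two-sided), checked on simulated counts. The standard error is the fold change over the square root of F. DESeq2 1.42.0 was an alternative. Intervals are exact Poisson ones at 95% and cover counting error only. RefSeq promoters matched 8 of 9 members. Named genes are the members, up to 4 called genes per list and the 3 genes most like each member of 200 or more UMIs. The clusters and alpha-defensin ranges described for the members, and the promoters printed, were chosen after values were seen.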

Additional observations from a re-analysis of the deposited data

How the results depend on the processing

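Scaling mattered most. With library size only, the source values for Egf, Tgfa, Areg, Dll4 and Jag1 turned to −0.44, −1.45, −1.10, −1.24 and −1.46 on the log2 scale. Between genotypes in Paneth cells, Egf, Tgfa and Jag1 turned to 0.0040, 0.46 and 0.32 and the list genes called came to 48. TA-like members called came to 2, and the interaction called 3, with Dll1 at 0.50. DESeq2 called 3 members and 16 list genes in Paneth, 1 member in goblet-like and 0 in TA-like cells. A limit of at least 10 UMIs in every sum left 3 members in Paneth cells. Paneth cells at 40% or more gave 3 members and 16 list genes, and turned the source values of Areg and Jag1 to −0.075 and −0.0054. Thinning to 2000 UMIs left 2 members against the other cells, 1 member and 5 list genes between genotypes, Tgfa at −0.31 in the former and Dll1 at 0.0053 in the latter. Areg, Egf and Jag1 had too few UMIs for a test after thinning, as had Tgfa between genotypes, and Areg at 10 UMIs in every sum or in the fl/fl libraries alone. Without the library block Areg was at −0.094. Per cell, 4 members were highest in Paneth cells.

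In TA-like cells, no filter, all cells of the clusters, doublets left out and the replicate block each gave 2 members, Wnt3 and Dll1, and in enterocyte-like cells no filter gave 1. Areg passed the source test with Paneth cells taken by cluster (1.10, adjusted p = 0.00959 in edgeR) or, in an alternative chosen after seeing the data, with the unnamed and Paneth-like clusters left out of the other cells (0.66, adjusted p = 0.0416 in edgeR). Equal replicate numbers did not pair the libraries (correlations of deviations from −0.012 to 0.034), and the replicate block left 5 members called in Paneth, 2 in goblet-like and 0 in enterocyte-like cells.

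Leaving out 1 library at a time gave 4 members in the source test, 4 in Paneth cells with 23 to 26 list genes, 1 to 3 in goblet-like, 1 to 2 in TA-like and 0 to 1 in enterocyte-like cells, and 0 in the interaction. Signs turned within these ranges: Areg from −0.083 to 0.58 in the source test, Tgfa from −0.49 to 0.022 between genotypes in Paneth cells, and in the interaction Wnt3 from −0.20 to 0.36, Areg from −4.46 to 1.12 and Dll4 from −0.11 to 0.16, with −0.064 for Dll4 without the second library labelled fl/fl. The value of −4.46 has 0 Areg UMIs in the remaining fl/fl goblet-like sum, so it is no bound. Dll1 passed without the second library labelled IEC-KO in TA-like (−0.55, adjusted p = 0.00123 in edgeR) and enterocyte-like cells (−1.25, adjusted p = 0.0322 in edgeR). Where not stated, the cause was not tested. Of the values for single members under all alternatives, 286 kept direction and side of the threshold, 12 gained and 22 lost a call, and 20 turned sign. With 2 libraries a group, and Ereg and Wnt11 at 44 and 2 UMIs, low members are limited by depth.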
